A study of Homo sapiens with 24 samples.

Results

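The genes described here encode the fatty acid desaturases and elongases of human cells: SCD and SCD5, FADS1, FADS2 and FADS3, ELOVL1, ELOVL5, ELOVL6 and ELOVL7, and HSD17B12. They were taken as a list of 10 symbols, all 10 of which matched 1 gene each among the 58735 in the deposited counts. All 10 also passed the filter on low counts that left 15123 genes for testing. RNA was sequenced in HT-144, an established melanoma cell line from a metastatic site. All cells were harvested on day 3 of transfection with a lipid reagent, in medium with insulin, transferrin and selenium. There were 6 groups. The mock group received no oligonucleotide. The siNegative group received a scramble small interfering RNA (siRNA) and the siSREBF1 group a pool of siRNAs for SREBF1, both at 50 nM. The ASO-Neg group received a negative control antisense oligonucleotide (ASO), and the ASO-SREBF1-S1 and ASO-SREBF1-S4 groups received 1 of 2 ASOs for SREBF1, all at 5 nM. Every group was 1 library of 1 cell line, and nothing says that the groups were cultured more than once, so the 3 SREBF1-targeting libraries and the 3 control libraries are the only replication, and each of them received another reagent. The p-values therefore measure the spread between these libraries, reagents included. Dose differed with chemistry, so ASO and siRNA cannot be told apart from 5 nM and 50 nM.

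SREBF1 encodes SREBP-1, a membrane-bound transcription factor that is cleaved and enters the nucleus, where it drives genes of fatty acid synthesis. Fatty acid synthase makes mainly palmitate. Elongases then condense an acyl-CoA with malonyl-CoA as the rate-limiting step of a cycle that adds carbon units. The reductase HSD17B12, a dehydratase of the HACD family and the reductase TECR complete each turn. Desaturases insert double bonds, using electrons passed from cytochrome b5 reductase through cytochrome b5. SCD and SCD5 make oleate and palmitoleate, FADS2 and FADS1 act in series on the dietary essential fatty acids, and FADS3 acts on sphingoid bases. Together these enzymes set the chain length and unsaturation of membrane lipids.

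Libraries held between 12916478 and 47900277 counts on genes, and the deepest was ASO-SREBF1-S1. SREBF1 itself stood at 231.5, 249.3 and 217.1 CPM (counts scaled to library size and composition) in mock, siNegative and ASO-Neg. It stood at 54.9, 76.9 and 70.3 CPM in siSREBF1, ASO-SREBF1-S1 and ASO-SREBF1-S4, so each targeting library matched its label. All 8 melanocytic markers examined reached 10 CPM, with a summed level of 4794 to 6281 CPM in the controls and 4124 to 5587 CPM in the targeting libraries. Markers of fat cells, which are rich in SCD, summed to at most 0.676 CPM in a library, and ADIPOQ and LEP had no count in any library. Fibroblast markers summed to 671 to 886 CPM in the controls and 637 to 940 CPM in the targeting libraries, nearly all of it COL1A2 and LUM, with the other 5 under 10 CPM. LUM, a matrix proteoglycan, stood at 74.2 to 84.5 CPM in the controls and 50.5 to 70.4 CPM in the targeting libraries (log2 ratio -0.36, edgeR adjusted p = 0.339), and COL1A2 overlapped between the sides. Keratinocyte markers summed to at most 29.4 CPM, nearly all of it KRT10 at 21.5 to 28.2 CPM, with KRT1 at 0. Endothelial markers summed to at most 57.2 CPM, nearly all of it KDR at 34.6 to 55.6 CPM. The part of other cell types in the results was not tested.

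SCD fell in the SREBF1-targeting libraries and was the single member to pass the test over all genes. FADS1, FADS2, ELOVL6, HSD17B12 and ELOVL5 were also lower in all 3 targeting libraries than in all 3 controls, at 73.4% to 89.8% of the control mean, without passing. The levels of SCD5, FADS3, ELOVL1 and ELOVL7 overlapped between the sides. In counts, 1 of 10 members was called lower and 0 higher in edgeR's quasi-likelihood test at an adjusted p of 0.05, where 0.0397% of all genes tested were called lower and 0.0198% higher. At an unadjusted p under 0.05, 6 of 10 members were lower, against 5.3% of all genes, and 0 were higher, against 4.93%. The same 6 had sides that did not overlap in that direction, against 8.52% of all genes, and 0 were apart in the other, against 8.87%. The median log2 ratio over the 10 members was -0.24, beside 0.01 over all genes tested. These shares and medians describe the list and do not test it, since its members were chosen with earlier results of these data known. RNA of bulk cultures was measured, so fewer cells of a type and less RNA per cell cannot be told apart.

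The members spanned a wide range of levels. Per kilobase of exon, the mean of the 3 control libraries was 783.1 CPM for SCD and 50.5 CPM for ELOVL5. FADS1 followed at 36.8, ELOVL1 at 22.7, HSD17B12 at 19.7 and ELOVL6 at 16.4 CPM per kilobase. FADS3, SCD5 and FADS2 were low at 4.9, 4.48 and 2.66 CPM per kilobase, and ELOVL7 was lowest at 1.14. Divided by the longest transcript in place of all exons, FADS1 was at 86.4 and ELOVL5 at 62.5 CPM per kilobase, so the order of this pair depends on the length used. The order of HSD17B12, ELOVL1 and ELOVL6 also depends on it in part, since HSD17B12 was then at 35.4, ELOVL1 at 35.0 and ELOVL6 at 18.2. So does that of the low members, with SCD5 then at 6.23, FADS3 at 5.80 and FADS2 at 5.52. SCD made up 82.5% to 84.1% of the members' summed level per kilobase in the controls and 73.3% to 76.4% in the targeting libraries. Among all genes ranked by counts it took places 9 to 11 in the controls and 21 to 31 in the targeting libraries.

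**Figure D1:**
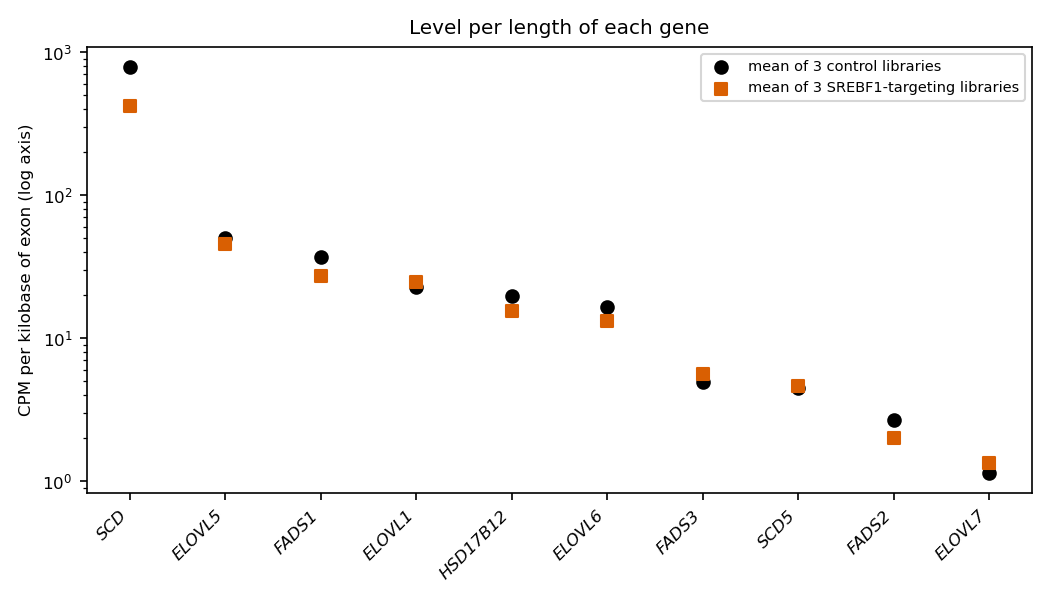
Level of each gene in CPM per kilobase of exon (vertical log axis), as the mean of the 3 control libraries (black points) and of the 3 SREBF1-targeting libraries (orange squares). SCD stands highest at 783.1 CPM per kilobase in the controls and 420.1 in the targeting libraries, and ELOVL7 lowest at 1.14 and 1.33.

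The sequences upstream of the start sites show what the strongest faller and members whose sides overlapped carry at their promoters. Sequences are from RefSeq on GRCh38.p14, in a table that matched 9 of the 10 genes (10 windows, since FADS2 had a pair). HSD17B12 was not matched and was not searched. The windows searched were the 250 bases before each start, and those printed lie outside annotated exons. Capitals mark matches, on either strand, to the CCAAT box (CCAAT, bound by NF-Y), the GC box (GGGCGG, bound by Sp factors), the E-box (CACGTG) and the sterol regulatory element of the classical type (TCACNCCAC). SCD is at chr10:100346983-100347232 on the plus strand, and SCD5 at chr4:82798797-82799046 on the minus strand. FADS3 is at chr11:61891546-61891795 on the minus strand, and the stretch of ELOVL6, whose sides did not overlap, at chr4:110198654-110198841 on the minus strand.
SCD: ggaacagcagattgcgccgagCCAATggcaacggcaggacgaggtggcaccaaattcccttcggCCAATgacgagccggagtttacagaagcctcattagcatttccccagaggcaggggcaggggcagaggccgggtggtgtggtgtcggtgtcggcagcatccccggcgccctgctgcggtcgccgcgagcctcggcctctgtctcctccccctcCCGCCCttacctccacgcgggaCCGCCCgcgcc
SCD5: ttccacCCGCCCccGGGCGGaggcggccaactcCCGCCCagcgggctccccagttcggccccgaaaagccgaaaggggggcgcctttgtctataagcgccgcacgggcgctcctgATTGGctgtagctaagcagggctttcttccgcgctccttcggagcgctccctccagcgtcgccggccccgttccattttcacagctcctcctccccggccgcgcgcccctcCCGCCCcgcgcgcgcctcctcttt
FADS3: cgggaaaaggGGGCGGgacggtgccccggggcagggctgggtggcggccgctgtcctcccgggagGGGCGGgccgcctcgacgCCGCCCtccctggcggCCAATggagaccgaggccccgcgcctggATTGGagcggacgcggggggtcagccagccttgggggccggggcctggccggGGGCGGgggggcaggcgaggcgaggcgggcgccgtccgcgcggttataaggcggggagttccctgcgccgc
ELOVL6: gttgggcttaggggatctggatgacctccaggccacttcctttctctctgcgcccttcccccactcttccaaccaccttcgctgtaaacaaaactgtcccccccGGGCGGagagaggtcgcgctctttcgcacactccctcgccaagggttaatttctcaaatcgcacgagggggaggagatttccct

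The SCD window held CCAAT boxes beginning 229 and 186 bases upstream of the start and GC boxes 33 and 11 bases upstream. A CCAAT box was in 5 of the 10 member windows and in 32.0% of the 35116 promoters of this length, and a GC box in 8 of 10 and in 42.6%. Of the 5 searched members that were lower in all 3 targeting libraries, SCD and ELOVL5 had CCAAT boxes, as did SCD5, FADS3 and ELOVL1, whose sides overlapped. An E-box was in the ELOVL5 window alone and in 6.34% of all promoters. Of that window 229 bases lie in annotated exons, which hold its E-box and its CCAAT boxes. Exons also cover 194 bases of the FADS1 window, 145 of the ELOVL1 window and 196 and 148 of the FADS2 pair. The classical sterol regulatory element matched 0 of 10 windows and 0.883% of all promoters. In the ELOVL1 window the CCAAT box beginning 65 bases upstream overlapped the GC box beginning 69 bases upstream. These are matches of letters in a short window and say nothing about binding.

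Of the enzymes of monounsaturated fatty acids, SCD (ENSG00000099194, chromosome 10, 100347233 to 100364826) lies in no other annotated gene. It stood at 4284, 3915 and 4124 CPM in mock, siNegative and ASO-Neg and at 1954, 2339 and 2317 CPM in siSREBF1, ASO-SREBF1-S1 and ASO-SREBF1-S4. The controls lay close together and the nearest pair across the sides was 1576 CPM apart. The mean went from 4107 ± 185 to 2203 ± 216 CPM (SD, n = 3 each), a log2 ratio of -0.90 (95% interval -1.12 to -0.68, edgeR adjusted p = 0.0224). By p it was gene 4 of 15123. The call was lost without mock (edgeR adjusted p = 0.238), without siNegative (0.156) or without ASO-Neg (0.216), while the log2 ratio stayed between -0.94 and -0.82 over the 6 fits that each left out 1 library. With chemistry as a term it was lost as well (edgeR adjusted p = 0.491), as were the calls of all genes (0%).

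SCD5 (ENSG00000145284, chromosome 4, 82629539 to 82798796), the other stearoyl-CoA desaturase, stood at 19.0, 19.9 and 17.9 CPM in mock, siNegative and ASO-Neg. It stood at 22.1, 20.4 and 16.6 CPM in siSREBF1, ASO-SREBF1-S1 and ASO-SREBF1-S4, which held both the highest and the lowest of the 6 values. The log2 ratio was 0.06 (95% interval -0.21 to 0.32, edgeR adjusted p = 0.902). A log2 ratio as low as -0.21 is within that interval.

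**Figure D2:**
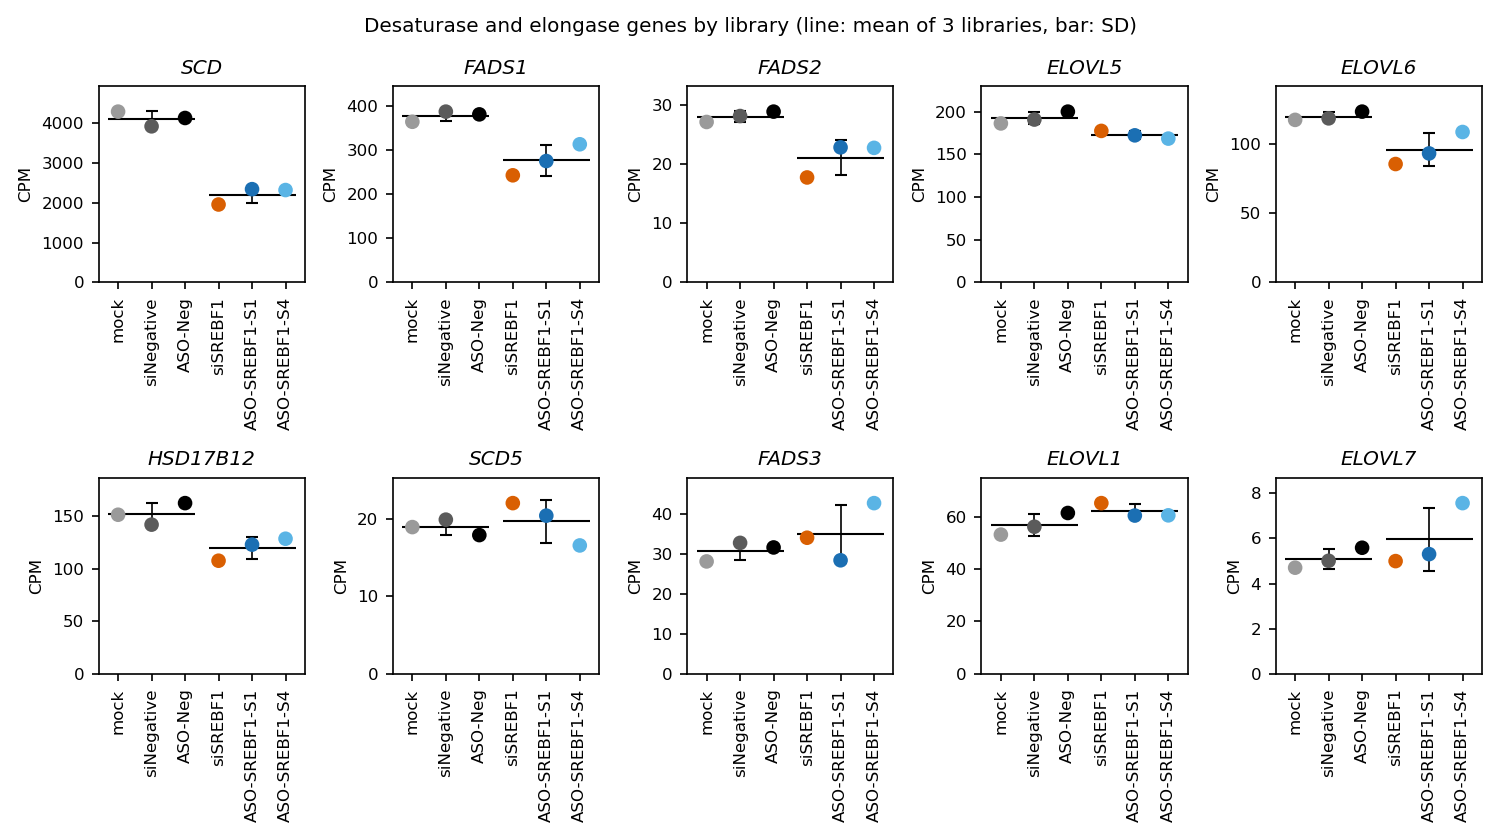
CPM of each gene (vertical axes, from 0) in the 3 control libraries (grey and black points) and the 3 SREBF1-targeting libraries (orange and blue points), with the mean of each side as a line and its SD as a bar. The sides are apart for SCD, FADS1, FADS2, ELOVL5, ELOVL6 and HSD17B12 and overlap for SCD5, FADS3, ELOVL1 and ELOVL7.

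Of the desaturases that act on polyunsaturated fatty acids, FADS1 (ENSG00000149485, chromosome 11, 61799627 to 61829318) makes arachidonate and eicosapentaenoate. It stood at 364, 387 and 380 CPM in mock, siNegative and ASO-Neg and at 242, 275 and 313 CPM in siSREBF1, ASO-SREBF1-S1 and ASO-SREBF1-S4. The siRNA library was lowest and ASO-SREBF1-S4 nearest to the controls, 50.9 CPM below the lowest of them. Its mean went from 377 ± 11.9 to 277 ± 35.2 CPM (SD, n = 3 each; log2 ratio -0.45, 95% interval -0.66 to -0.23) and did not pass (edgeR adjusted p = 0.184).

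FADS2 (ENSG00000134824, chromosome 11, 61792980 to 61867354), which catalyses the entry step of the same series, was far less abundant. It stood at 27.1, 28.1 and 28.9 CPM in mock, siNegative and ASO-Neg and at 17.7, 22.8 and 22.7 CPM in siSREBF1, ASO-SREBF1-S1 and ASO-SREBF1-S4. The ASO libraries were alike and the siRNA library lower. The mean went from 28.0 ± 0.878 to 21.1 ± 2.91 CPM (SD, n = 3 each; log2 ratio -0.40, 95% interval -0.64 to -0.16, edgeR adjusted p = 0.265). FADS2 overlaps exons of FADS1 on the opposite strand and of FEN1, a flap endonuclease, on its own, and 32.4% of the stranded counts at FADS2 were on the other strand, against 2.45% at FADS1. In the unstranded counts, the log2 ratio of FADS2 was -0.38, with 16.8 to 21.9 CPM in the targeting libraries and 25.4 to 27.1 CPM in the controls.

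FADS3 (ENSG00000221968, chromosome 11, 61873519 to 61892051), the neighbour of FADS2, did not share this pattern of separated sides. It stood at 28.1, 32.8 and 31.6 CPM in mock, siNegative and ASO-Neg and at 34.1, 28.4 and 42.7 CPM in siSREBF1, ASO-SREBF1-S1 and ASO-SREBF1-S4. The highest library was ASO-SREBF1-S4, while ASO-SREBF1-S1 lay within the controls. The log2 ratio was 0.17 (95% interval -0.15 to 0.49, edgeR adjusted p = 0.719).

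Of the elongases, ELOVL6 (ENSG00000170522, chromosome 4, 110045846 to 110199199) extends palmitate to stearate, the substrate of SCD. It stood at 117, 118 and 123 CPM in mock, siNegative and ASO-Neg and at 85.3, 93.0 and 108 CPM in siSREBF1, ASO-SREBF1-S1 and ASO-SREBF1-S4. As for FADS1, the siRNA library was lowest and ASO-SREBF1-S4 nearest to the controls. The mean went from 119 ± 3.16 to 95.6 ± 11.8 CPM (SD, n = 3 each; log2 ratio -0.32, 95% interval -0.53 to -0.12, edgeR adjusted p = 0.284).

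ELOVL5 (ENSG00000012660, chromosome 6, 53267398 to 53349179), which extends polyunsaturated products of FADS2, differed least among the 6 with separated sides. It stood at 186, 191 and 200 CPM in mock, siNegative and ASO-Neg and at 178, 172 and 169 CPM in siSREBF1, ASO-SREBF1-S1 and ASO-SREBF1-S4. Here the siRNA library was the highest of the 3 targeting libraries. The mean went from 193 ± 7.06 to 173 ± 4.53 CPM (SD, n = 3 each; log2 ratio -0.16, 95% interval -0.30 to -0.01, edgeR adjusted p = 0.449).

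ELOVL1 (ENSG00000066322, chromosome 1, 43363398 to 43368074), which makes saturated and monounsaturated very long chains for sphingolipids, ranged from 53.1 CPM in mock to 65.1 CPM in siSREBF1. The ASO-Neg library at 61.4 CPM lay above both SREBF1 ASO libraries at 60.4 and 60.5 CPM. The log2 ratio was 0.12 (95% interval -0.05 to 0.29, edgeR adjusted p = 0.63). ELOVL7 (ENSG00000164181, chromosome 5, 60751791 to 60844274), another elongase of long saturated chains, had the lowest level of the members, with 60 to 256 counts per library. It ranged from 4.7 CPM in mock to 7.56 CPM in ASO-SREBF1-S4, and its log2 ratio was 0.21 with a wide interval (95% interval -0.21 to 0.63, edgeR adjusted p = 0.738).

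HSD17B12 (ENSG00000149084, chromosome 11, 43680680 to 43856617), the ketoacyl-CoA reductase that serves every elongase, was also apart between the sides. It stood at 151, 142 and 162 CPM in mock, siNegative and ASO-Neg and at 108, 123 and 128 CPM in siSREBF1, ASO-SREBF1-S1 and ASO-SREBF1-S4. The order of the targeting libraries was that of FADS1 and ELOVL6. The mean went from 152 ± 10.2 to 120 ± 10.8 CPM (SD, n = 3 each; log2 ratio -0.34, 95% interval -0.54 to -0.15, edgeR adjusted p = 0.239). Across the 6 libraries the root mean square difference of centred log2 levels was 0.06 between ELOVL6 and HSD17B12, the smallest of all pairs of members, and 0.07 between FADS1 and FADS2. It was largest, at 0.57, between SCD and FADS3. These distances share libraries and describe them only. Exons of FADS1 and FADS2 overlap on opposite strands, and what FADS1 reads add to the FADS2 counts was not tested.

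Each targeting library was also set against the non-targeting library of its own chemistry. With 1 library a side there is no test, and intervals cover counting error only. In siSREBF1 over siNegative, the level of SCD was 49.9% of that in the control library (95% counting interval of the log2 ratio -1.02 to -0.98), FADS1 at 62.7% and FADS2 at 63.1%. These 3 members were at least 1.5-fold lower, of 9 that reached 10 CPM in either library, against 1.4% of all such genes. ELOVL6 was at 72.2% and HSD17B12 at 75.8%, while ELOVL5 was at 93.0%. ELOVL1 was at 116% and SCD5 at 111%.

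In ASO-SREBF1-S1 over ASO-Neg, the SCD level was 56.7% of that in the control library (95% counting interval of the log2 ratio -0.83 to -0.80), the 1 of 9 members at least 1.5-fold lower, against 1.47% of all such genes. FADS1 was at 72.2%, ELOVL6 at 75.5%, HSD17B12 at 75.7%, FADS2 at 79.1% and ELOVL5 at 86.1%. In ASO-SREBF1-S4 over the same control library, SCD was at 56.2% (log2 ratio -0.83, 95% counting interval -0.85 to -0.81), again the 1 member of 9 past that fold, against 1.37% of all such genes. FADS2 was at 78.8%, HSD17B12 at 79.1%, FADS1 at 82.2%, ELOVL5 at 84.2% and ELOVL6 at 88.1%. Both ASO comparisons share the ASO-Neg library. Between the 2 ASOs, the SCD level with ASO-SREBF1-S4 was 99.1% of that with ASO-SREBF1-S1 (95% counting interval of the log2 ratio -0.03 to 0.0031). They were less alike for FADS3, which was at 135% of ASO-Neg with ASO-SREBF1-S4 and at 89.8% with ASO-SREBF1-S1. ASO-SREBF1-S4 over ASO-SREBF1-S1 was 150% for FADS3, the 1 member at least 1.5-fold higher, against 3.16% of all such genes.

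The control reagents differed little from mock at these genes. No member was 1.5-fold higher or lower in siNegative over mock, where 0.0612% of genes were lower and 0.398% higher, nor in ASO-Neg over mock, where 0.44% were lower and 0.123% higher. SCD was at 91.4% of mock in siNegative and 96.3% in ASO-Neg. The largest of these ratios among members at 10 CPM or more was that of FADS3, at 116% of mock in siNegative (log2 ratio 0.22, 95% counting interval 0.03 to 0.41).

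**Figure D3:**
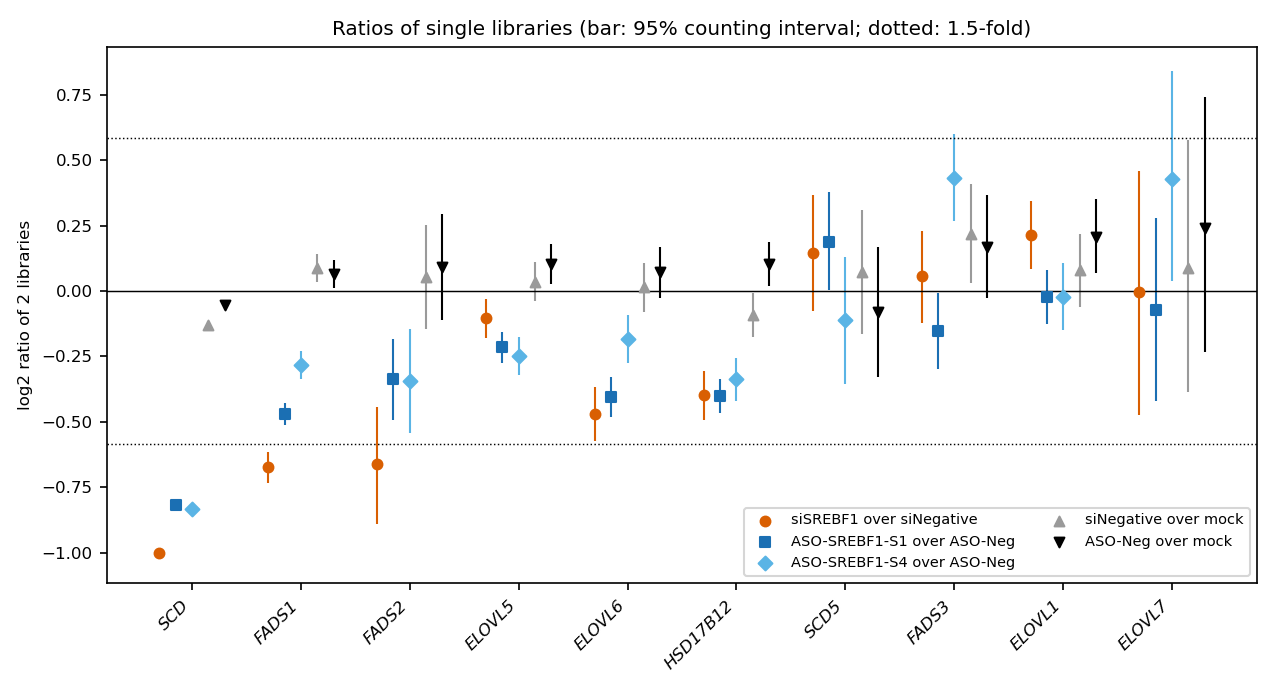
log2 ratio of 1 library over another (vertical axis) for each gene, with 95% counting intervals as bars and 1.5-fold as dotted lines. Orange, dark blue and light blue markers are the siRNA and the 2 SREBF1 ASOs over their controls, and grey and black markers the control reagents over mock. SCD lies beyond 1.5-fold with all 3 reagents, at 49.9% to 56.7% of the control, and FADS1 and FADS2 with the siRNA.

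The ASO pair was compared with the 3 controls in a fit with siSREBF1 as a class of its own. SCD fell by 0.82 on the log2 scale (95% interval -1.03 to -0.61, edgeR adjusted p = 0.0322), the 1 of 10 members called, against 0.043% of 16297 genes called lower. At an unadjusted p under 0.05, 6 members were lower, against 5.86% of all genes. FADS1 had a log2 ratio of -0.36, FADS2 -0.30, HSD17B12 -0.27, ELOVL6 -0.25 and ELOVL5 -0.18, each with an edgeR adjusted p of 0.178 or more. The call for SCD was lost without mock (log2 ratio -0.80, edgeR adjusted p = 0.344), siNegative (-0.86, 0.344) or ASO-Neg (-0.82, 0.254).

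The siRNA pool was also set against the ASO pair. The siSREBF1 side is 1 library, assumed to vary like the others, so the spread behind these p-values and intervals comes from the 3 controls and the 2 ASO libraries. In edgeR, 0 of 10 members were called between siSREBF1 and the ASO pair, against 0.147% of all genes called in either direction. At an unadjusted p under 0.05 there were 2 of 10 members with a log2 ratio below 0, FADS2 and FADS1, against 4.32% of all genes, and neither passed over all genes. FADS2 had a log2 ratio of -0.36 (95% interval -0.65 to -0.08, edgeR adjusted p = 0.428) and FADS1 -0.28 (95% interval -0.54 to -0.02, edgeR adjusted p = 0.534). SCD had -0.25 (95% interval -0.54 to 0.03, edgeR adjusted p = 0.624). SREBF1, too, was lower in the siRNA library, at 54.9 CPM against 76.9 and 70.3 CPM with ASO-SREBF1-S1 and ASO-SREBF1-S4. Of the 6 members with separated sides, 5 were lowest in siSREBF1 and ELOVL5 was lowest in ASO-SREBF1-S4. The lowest library was not counted over the 1289 genes with lower, separated sides, so no share stands beside the 5. A link of this order to the SREBF1 level was not tested. When each reagent was set against its own control, the interaction of chemistry and target called 0 members and 0% of 16242 genes in edgeR, and no member had an unadjusted p under 0.05, against 1.34% of all genes. Its interval for SCD ran from -1.09 to 0.75, since the spread rested on the 2 ASOs alone.

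The genes that work with these enzymes were taken from 5 further lists. For the elongation cycle, 0 of 7 tested genes (of 8 listed) passed over all genes, and the median log2 ratio was 0.02. TECR, the enoyl reductase, stood at 125 ± 6.14 CPM in the controls and 109 ± 5.3 CPM in the targeting libraries (SD, n = 3 each; log2 ratio -0.20, edgeR adjusted p = 0.372). The dehydratases HACD1 and HACD3 had log2 ratios of -0.11 and -0.08, and the elongase ELOVL4 had 0.45 at 6.04 ± 0.649 against 8.31 ± 1.08 CPM (SD, n = 3 each; edgeR adjusted p = 0.353).

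In the list of the electron chain and other desaturases, 0 of 7 tested genes (of 9 listed) passed, with a median of 0.12. CYB5R3, a cytochrome b5 reductase, stood at 282 ± 21.5 against 232 ± 23.1 CPM (SD, n = 3 each; log2 ratio -0.28, edgeR adjusted p = 0.339) and CYB5R1 had a log2 ratio of -0.21. CYB5B, an outer mitochondrial membrane cytochrome b5, had 0.14, and CYB5R2 had 0.88 at under 5 CPM in each library. FADS6 had 1 count in all libraries together.

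Of 11 genes that supply substrate 10 were tested, and 10 had a log2 ratio below 0, where 48.5% of all genes did, with a median of -0.35. ACSL1, which activates long-chain fatty acids, was the 1 that passed (log2 ratio -0.63, edgeR adjusted p = 0.0442). FASN, the fatty acid synthase, had -0.76 (edgeR adjusted p = 0.0738), ACSS2 -0.46, ACACA, which makes the malonyl-CoA used by elongases, -0.41, and ACLY, which makes acetyl-CoA, -0.38. Of 14 regulators, SREBF1 fell and no other passed. INSIG1, which retains SREBPs in the endoplasmic reticulum, had -0.66 (edgeR adjusted p = 0.0919), NR1H2, the beta form of LXR, -0.32, SREBF2 -0.21 and PPARA -0.19. Of 15 genes that use the products 0 passed, with a median of -0.06. The acyltransferases LPCAT1 and LPCAT3 had -0.35 and -0.20, the ceramide synthase CERS6 -0.15 and the peroxisomal enzyme HSD17B4 -0.23.

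**Figure D4:**
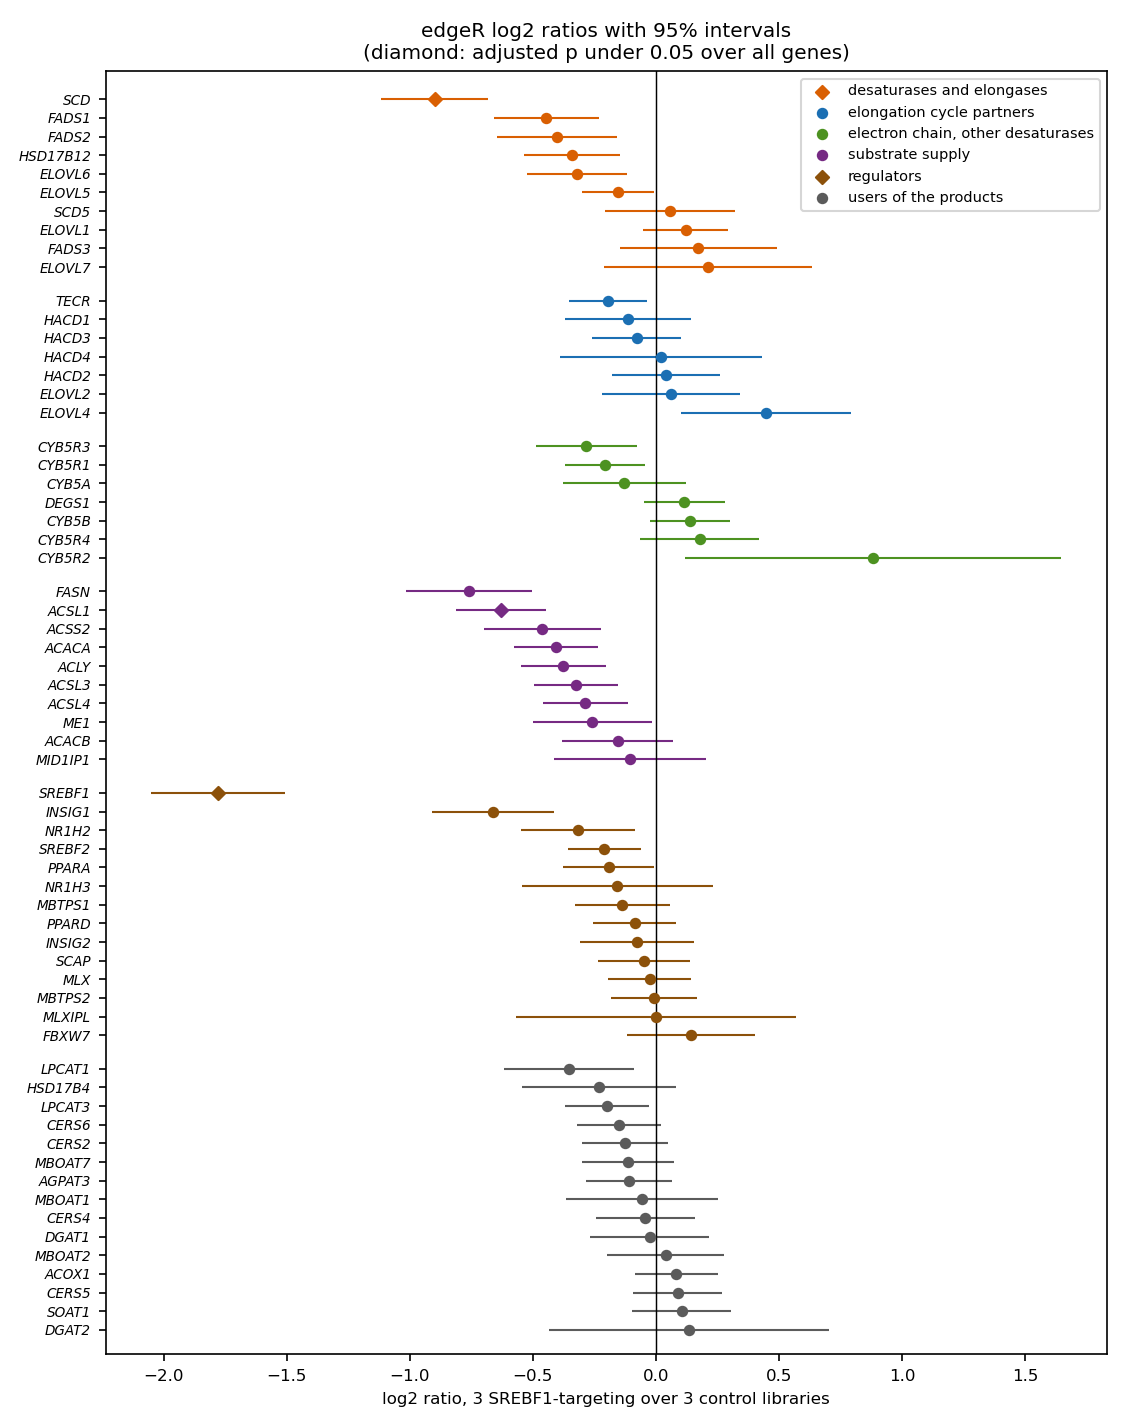
edgeR log2 ratio of the 3 SREBF1-targeting over the 3 control libraries (horizontal axis) with 95% intervals for each gene tested, coloured by list, with diamonds for an adjusted p under 0.05 over all genes. SCD at -0.90, ACSL1 at -0.63 and SREBF1 at -1.78 are diamonds, and the intervals of SCD5, FADS3, ELOVL1 and ELOVL7 span 0.

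The genes most like SCD were those with the smallest root mean square difference of centred log2 levels over the 6 libraries, among 4430 genes with a mean of at least 50 CPM. They were FASN at 0.12, PRUNE2 at 0.15, INSIG1 at 0.15, ACSL1 at 0.16 and PGD, an enzyme of the pentose phosphate pathway, at 0.16. FASN stood at 1884, 1840 and 1663 CPM in mock, siNegative and ASO-Neg and at 918, 1233 and 1032 CPM in siSREBF1, ASO-SREBF1-S1 and ASO-SREBF1-S4. PRUNE2 stood at 158 to 164 CPM in the controls and at 80.9 to 94.0 CPM in the targeting libraries. No other member of the desaturase and elongase list was among the 5. SCD5, FADS2, FADS3 and ELOVL7 had means under 50 CPM and so were not in the search.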

How the data were processed

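Per the labels' protocols, poly(A) RNA gave strand-specific libraries that were sequenced from both ends at 75 bp. The authors deposited whole-number read counts per gene for 24 lane files, aligned with STAR 2.6.1a to GRCh38, per the submitters' processing notes. The annotation and counting options are not given in the sources used here. The 4 summary lines of each file were left out (80.65% to 81.82% of read pairs were on a gene). Lanes of 1 library agreed within sampling noise (chi-square per degree of freedom 1 to 1.07, against 1.92 to 8.8 between libraries) and were summed, so each group counts once. The reverse-strand column was used, since the other strand held 6.47% to 7.79% of counts. Of the identifiers 58207 matched GENCODE release 44, which gave names, coordinates and lengths.

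Tests used edgeR 4.0.16 in R 4.3.3 (TMM, filterByExpr, quasi-likelihood F test, 2-sided, Benjamini-Hochberg over all genes tested, threshold 0.05), with limma 3.58.1 and DESeq2 1.42.0 as alternatives. Single-library ratios used a prior count of 2 and exact 95% counting intervals, with a size rule of 1.5-fold and 10 CPM in either library. The rule for named genes took all members, SREBF1 and SREBF2, of each list those past the threshold and up to 4 more by p, and 5 genes nearest to SCD with a mean of 50 CPM. Members and lists were chosen with earlier results of these data known. Simulated data had 200 genes changed 2-fold among 14968, with the same dispersion of 0.01 for every gene. There 93.5% of the 200 were recovered in the comparison of targeting with control libraries, with 7 false calls. Differences between reagents, dispersions that differ between genes and changes smaller than 2-fold were not simulated. Recovery at the spread of the real libraries, and of the smaller ratios of the uncalled members, was therefore not tested.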

Additional observations from a re-analysis of the deposited data

How the results depend on the processing

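No paired analysis was possible because the replicate numbers in the labels are sequencing lanes of 1 library, and 1 library per group remains. In the comparison of targeting with control libraries, 1 member, 9 genes and 2 partner genes were called. The DESeq2 Wald test called 2 members (SCD and FADS1), 171 genes and 8 partner genes, and limma-voom 5 genes and 1 partner gene. Without a low-count filter every gene with a count was tested, more than the 15123 that passed the filter. There edgeR called 5 members (SCD, FADS1, FADS2, ELOVL6 and HSD17B12), 509 genes and 9 partner genes. The number of genes tested without the filter was not recorded, so no share stands beside these counts. With chemistry as a term, it called 0 members, 0 genes and 0 partner genes, with SCD at -0.90 on the log2 scale (edgeR adjusted p = 0.491). Leaving out 1 library at a time gave 0 to 1 members, 1 to 103 genes (103 without ASO-SREBF1-S1) and 1 to 5 partner genes. For the ASO pair against the controls, the 1 member called became 2 with DESeq2 and 2 without the filter. The count was 0 without mock, siNegative or ASO-Neg, and stayed 1 without siSREBF1. Leaving out ASO-SREBF1-S1 or ASO-SREBF1-S4 left 1 library in that class, with SCD at -0.83 or -0.81 on the log2 scale. The calls over all genes in these fits were not counted, so the member counts have no share beside them. For siSREBF1 against the ASO pair, 0 members were called under each alternative run. SCD5 turned to -0.019 without siSREBF1. Over all 12 alternatives the log2 ratio lay between -0.54 and -0.36 for FADS1, -0.48 and -0.30 for FADS2, -0.42 and -0.25 for ELOVL6, -0.40 and -0.27 for HSD17B12, and -0.18 and -0.13 for ELOVL5. The cause of these shifts in counts was not tested. Depth limits ELOVL7 most, and a count of 3 was worth 0.0626 to 0.232 CPM.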
